A study of Rattus norvegicus with 21 samples.

Results

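S100 proteins and annexins are 2 families of calcium-binding proteins. The members described here are 6 S100 genes (S100a4, S100a6, S100a8, S100a9, S100a10 and S100a11) and 4 annexin genes (Anxa1, Anxa2, Anxa3 and Anxa5), 10 of the 28914 gene names of the deposited count table, found there by symbol. The members were chosen by their symbols after their higher levels in operated than in sham-operated animals were known, so their values in that comparison are a description and carry no test. RNA was measured by sequencing of polyadenylated RNA from the isolated pancreatic islets (insulin- and glucagon-producing tissue) of Lewis rats 4 weeks after surgery. The PX group (11 libraries) had 90% of the pancreas removed and the Sham group (10 libraries) had a sham operation. No genetic change or drug is given for either group. The sample descriptions add a span of 4 to 5 weeks without saying whether it is an age, and each animal has an average BG before sacrifice, given without a unit, from 82 to 104 in Sham and from 101 to 174 in PX.

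Members of the S100 family are small proteins with a pair of EF-hand calcium-binding sites that mostly work as dimers. When calcium rises, most of them expose a surface that binds partner proteins, and several are also released from cells. Annexins bind negatively charged membrane lipids in the presence of calcium and take part in membrane repair, vesicle traffic and the clearance of dying cells. Some members of both families form complexes, of which S100a10 with annexin A2 is the best known. S100a8 and S100a9 form calprotectin, an abundant protein of neutrophils and monocytes. S100a4, S100a6, S100a10, S100a11 and several annexins are known from fibroblasts, macrophages, ducts and other epithelia.

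Total counts per library ran from 4001908 to 13187959. The numbers in the library names are the animal numbers of the titles, and only these numbers tell the animals apart. Levels are given in CPM, the count as parts per 1e6 of the library total after TMM scaling. Insulin, glucagon and the other endocrine markers were abundant in every library, with a summed level of the 12 endocrine markers from 85941 to 243459 CPM in PX and from 97226 to 172399 CPM in Sham. Sham 46 stood apart from the other Sham libraries in several members. PX 44 held the lowest macrophage score and PX 65 the highest acinar score of the PX group. These libraries are named where a value rests on them. PX 65 also had the lowest TMM factor, 0.359 against 0.820 in PX 62, the next lowest, and this raises its CPM. In tissue RNA, a higher level per cell cannot be told apart from more cells of a type that expresses the gene.

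All 6 S100 members lie on chromosome 2 in the coordinates of the deposited table, whose genome build is not given in the sources used here. S100a4 (189997129 to 189999604), S100a6 (190007216 to 190008511), S100a8 (190073815 to 190074354) and S100a9 (190097554 to 190100276) belong to a cluster that spans 199.6 kb from S100a1 to S100a9. S100a11 (193866951 to 193868502) and S100a10 (193892589 to 193901236) lie 24.1 kb apart at a distance of 3.77 Mb from S100a9. Anxa5 is on the same chromosome (123162461 to 123193130). Anxa1 is on chromosome 1 (237893966 to 237910012), Anxa2 on chromosome 8 (75687100 to 75723594) and Anxa3 on chromosome 14 (14364008 to 14426437). RefSeq lists 5 pseudogenes and 2 like-named genes of S100a11, and 1 pseudogene each of S100a10 and Anxa2, found by symbol. Reads of these 3 genes could be shared with such copies, so their counts are uncertain. How alike the sequences are was not measured.

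The upstream sequences of 5 members are shown because 4 of them carry the exact letters TATAAA near the start. S100a6, the member with the highest level, has no exact match but holds the similar letters tataag. The sequences are the 130 bases before the gene start used by the RefSeq promoter table (GRCr8), which held 8 of the 10 members. Capitals mark TATAAA, the TATA element, and TGANTCA, the AP-1 element, both searched on both strands.
S100a4: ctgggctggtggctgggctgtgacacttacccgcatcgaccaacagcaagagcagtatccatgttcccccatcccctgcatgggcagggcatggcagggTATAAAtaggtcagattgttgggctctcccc
S100a6: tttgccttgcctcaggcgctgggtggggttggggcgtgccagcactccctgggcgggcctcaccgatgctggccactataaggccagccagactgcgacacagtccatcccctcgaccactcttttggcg
S100a9: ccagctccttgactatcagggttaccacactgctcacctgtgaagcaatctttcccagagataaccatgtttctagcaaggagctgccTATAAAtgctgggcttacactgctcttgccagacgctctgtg
Anxa1: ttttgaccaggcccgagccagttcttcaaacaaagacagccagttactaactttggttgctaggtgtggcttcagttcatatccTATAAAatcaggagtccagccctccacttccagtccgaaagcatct
Anxa2: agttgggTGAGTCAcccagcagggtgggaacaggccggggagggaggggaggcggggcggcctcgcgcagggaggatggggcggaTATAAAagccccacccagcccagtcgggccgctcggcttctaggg
S100a4 (chr2:178388399-178388528), S100a6 (chr2:178398407-178398536) and Anxa2 (chr8:78986122-78986251) are on the plus strand, and S100a9 (chr2:178490623-178490752) and Anxa1 (chr1:227303733-227303862) on the minus strand. Counted from the gene start, TATAAA began at -31 in S100a4, -42 in S100a9, -45 in Anxa2 and -46 in Anxa1. It occurred within 250 bases upstream in 4 of the 8 members and in 12.9% of all 33469 promoters of the table. TGANTCA was found in Anxa2 alone among the 8, beginning at -123, and in 6.34% of all promoters. GGGCGG, the core of an Sp1 element, was found in 5 of the 8 members (Anxa2, Anxa3, Anxa5, S100a6 and S100a11) and in 30.5% of all promoters. TTNNGNAA, a loose C/EBP element, was found in 3 of the 8 (Anxa1, Anxa3 and S100a9) and in 37.2%. No match of 1 motif overlapped a match of another in these members. The motifs were picked after the sequences had been read, and a match of letters is not a binding site.

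S100a6 (calcyclin), a regulator of the cytoskeleton and of cell proliferation, had the highest level per gene length of the 10 members in both groups. Its level in Sham was 20.6 CPM at the lowest, 33.3 at the median and 53.2 at the highest. In PX it was 187.7 at the lowest (PX 66), 328 at the median and 831 at the highest (PX 65). PX 65 had 3923 reads of S100a6 in 13187959 counts, and PX 41 had 3925 in 5486631 counts. The first place of PX 65 therefore rests on its TMM factor of 0.359. Every PX library lay above every Sham library, and the lowest PX library was above the highest Sham library by more than the whole range of the Sham group. In the fit this was a log2 fold change of 3.53 ± 0.27 (SE, edgeR), an 11.6-fold higher level in PX.

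S100a4 (also known as metastasin), a binding partner of non-muscle myosin that marks fibroblasts and some macrophages, lies upstream of S100a6, with 7.61 kb and the gene S100a5 between them. It went from 1.75 CPM at the lowest, 3.02 at the median and 7.54 at the highest in Sham to 4.16, 18.8 and 83.2 CPM in PX. PX 44, at 4.16 CPM, was the only PX library inside the Sham range, and the Sham maximum was Sham 46. The log2 fold change was 3.30 ± 0.48 (SE), 9.86-fold higher in PX, with a 20.01-fold span between the lowest and the highest PX library, against 4.43-fold for S100a6.

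S100a10 (p11), the partner of annexin A2 in a heterotetramer that binds plasminogen at the cell surface, had 3.40 CPM at the lowest, 4.62 at the median and 10.4 at the highest in Sham, and 7.23, 16.4 and 39.1 CPM in PX. Sham 46 was again the highest Sham library, and PX 37, PX 44 and PX 70 lay below it. The log2 fold change was 1.90 ± 0.29 (SE), 3.73-fold higher in PX.

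S100a8, S100a9 and S100a11 were too low for the filter on low counts. S100a8, a calprotectin subunit, had 16 reads in all PX libraries together and 7 in all Sham libraries, and it was at 0 in 3 PX and 7 Sham libraries. S100a9, the other subunit, had 137 reads in PX and 39 in Sham, a pooled level of 1.76 CPM (95% exact Poisson interval 1.48 to 2.08) against 0.504 CPM (0.358 to 0.689), intervals that cover counting error only. PX 36 alone held 45 of the 137 PX reads of S100a9, and Sham 22 held 14 of the 39 Sham reads. S100a9 ranged from 0.423 to 6.37 CPM in PX and from 0 to 1.68 CPM in Sham, so the groups overlapped. S100a11 (calgizzarin), a partner of annexins A1 and A2, had 160 reads in PX and 17 in Sham, a pooled 2.06 CPM (1.75 to 2.40) against 0.220 CPM (0.128 to 0.352). Each PX library except PX 44, at 0.347 CPM, was above the highest Sham library, at 0.530 CPM.

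Anxa1, the glucocorticoid-induced anti-inflammatory annexin that signals through formyl peptide receptors, went from 7.34 CPM at the lowest, 8.95 at the median and 16.8 at the highest in Sham to 46.3, 85.4 and 196 CPM in PX. The highest PX value was that of PX 65, whose TMM factor of 0.359 raises its CPM. The groups did not overlap. The log2 fold change was 3.39 ± 0.27 (SE), 10.5-fold higher in PX.

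Anxa2, the annexin that pairs with S100a10, had 7.48 CPM at the lowest, 11.3 at the median and 33.0 at the highest in Sham, and 22.6, 61.6 and 224 CPM in PX. Sham 46, the Sham maximum, lay above PX 44 and below the other 10 PX libraries. For Anxa2 the log2 fold change was 2.71 ± 0.40 (SE), 6.55-fold higher in PX.

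Anxa3, known from neutrophils, macrophages and epithelia, had 3.30, 4.66 and 14.8 CPM (lowest, median and highest) in Sham and 11.7, 23.01 and 49.15 CPM in PX. Sham 46 lay above PX 44 and PX 70, and the other 9 Sham libraries were below all PX libraries. Its log2 fold change was 2.24 ± 0.29 (SE), 4.72-fold higher in PX.

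Anxa5, which binds phosphatidylserine on dying cells, was the annexin member with the highest level in Sham and had the smallest fold change of the 7 members in the fit. It had 75.5, 94.6 and 145 CPM (lowest, median and highest) in Sham and 133, 200.4 and 300.4 CPM in PX. The highest PX value of Anxa5 was that of PX 65, whose TMM factor of 0.359 raises its CPM. Only Sham 46 overlapped with PX, lying above PX 44 and PX 70. Its log2 fold change was 1.0 ± 0.16 (SE), 2.0-fold higher in PX.

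**Figure D1:**
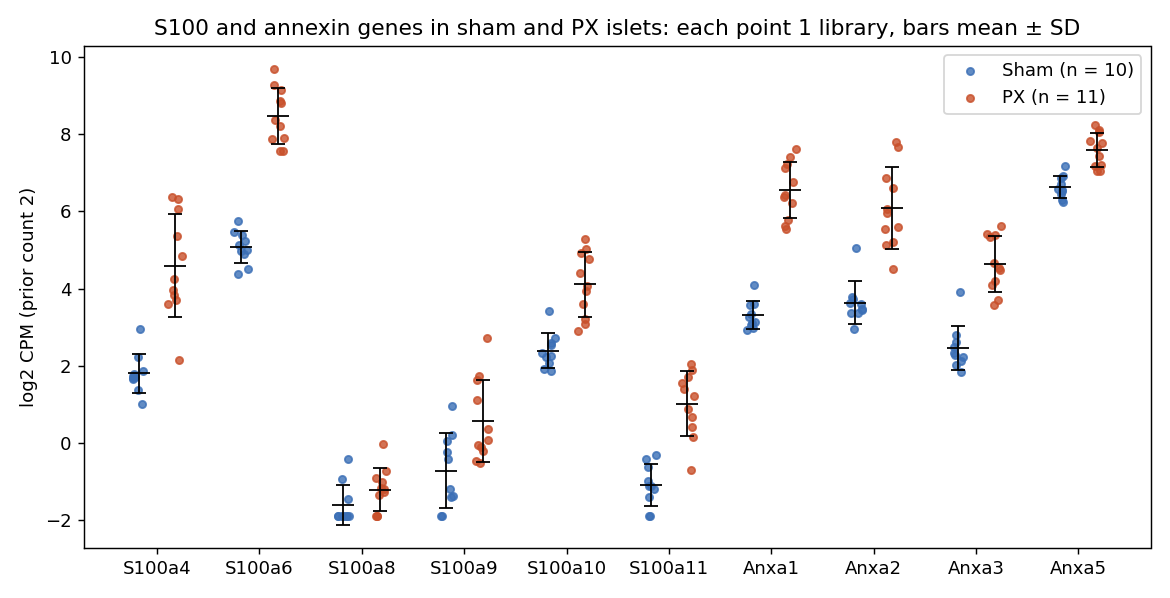
Log2 CPM (vertical axis, prior count 2) of the 10 members (horizontal axis) in the 10 Sham and 11 PX libraries, with each point 1 library and bars the mean ± SD. The groups are apart for S100a6 and Anxa1, and S100a8 lies near the floor in both groups.

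The filter kept 7 of the 10 members. All 7 were called higher in PX, where 14.9% of the 13136 tested genes were called higher and 31.1% in either direction. For 2 members, S100a6 and Anxa1, all PX libraries lay above all Sham libraries, as did 1.55% of the tested genes. These counts come from the contrast that chose the members and nothing is read from them. The median log2 fold change of all tested genes was -0.04. In the authors' deposited table the log2 fold changes of the same 7 genes ran from 0.96 for Anxa5 to 3.43 for S100a6.

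Levels of different genes were compared per kilobase of the gene length in the deposited table (RPKM, CPM per kb). In Sham the order of the mean RPKM was S100a6 (73.4 ± 20.9, SD, n = 10), Anxa5 (65.4 ± 13.9), Anxa2 (9.63 ± 5.20), S100a10 (9.18 ± 3.56), Anxa1 (7.03 ± 2.04), S100a4 (5.28 ± 2.44), Anxa3 (1.47 ± 0.846), S100a9 (0.905 ± 1.001), S100a11 (0.769 ± 0.617) and S100a8 (0.220 ± 0.429). Only the steps from Anxa5 to Anxa2 and from S100a4 to Anxa3 were larger than the larger SD of the genes on either side. In PX, S100a6 had 849 ± 436 RPKM (SD, n = 11), Anxa5 131 ± 39.4, Anxa1 74.2 ± 36.4, Anxa2 63.4 ± 49.8, S100a4 52.3 ± 44.5 and S100a10 34.5 ± 19.1. Anxa3 followed at 7.04 ± 3.40, S100a11 at 6.91 ± 3.81, S100a9 at 3.23 ± 3.43 and S100a8 at 0.514 ± 0.537. The steps from S100a6 to Anxa5, Anxa5 to Anxa1 and S100a10 to Anxa3 exceeded the larger SD, and the other steps did not. This SD is between libraries, whereas 2 genes of 1 library are paired. Within the 11 PX libraries, S100a9 was above S100a8 in 11 and Anxa2 above S100a4 in 10. S100a4 was above S100a10 and S100a11 above S100a9 in 9 each, Anxa1 above Anxa2 in 8 and Anxa3 above S100a11 in 5. In Sham, Anxa1 was above S100a4 in 9 of 10 libraries and Anxa2 above S100a10 in 5 of 10. S100a6 was above Anxa5 in 7 of 10 Sham libraries and in 11 of 11 PX libraries.

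The other genes of both families were read from a list of 12 S100 and 8 annexin genes. The count table held 10 and 8 of them, and S100a7a and S100a7l2 had no read in any library. Of the 9 that passed the filter, 3 rose in PX, 0 fell and 6 were not called (edgeR quasi-likelihood test, Benjamini-Hochberg adjusted over all genes), with a median log2 fold change of 0.98 for 4 S100 genes and 0.20 for 5 annexins. Over all tested genes 14.9% were called higher and 31.1% in either direction, and nothing is read from the family count. S100b, a marker of glia and Schwann cells, rose from 0.884 ± 0.437 CPM (SD, n = 10) to 2.70 ± 1.38 CPM (SD, n = 11). Its difference on the log2 scale was 1.60 ± 0.32 (SE, adjusted p = 0.000509, edgeR). S100a16, a broadly expressed S100 gene of the same chromosome 2 cluster, rose from 11.4 ± 4.94 to 32.0 ± 16.8 CPM, by 1.48 ± 0.30 (adjusted p = 0.000689). Anxa6, an annexin with a doubled core, rose from 98.4 ± 10.02 to 132 ± 24.2 CPM, by 0.43 ± 0.10 (adjusted p = 0.00304). All 3 values were below those of the members S100a10, Anxa3, Anxa2, S100a4, Anxa1 and S100a6, and only that of Anxa6 was below Anxa5.

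Within the S100 cluster, levels of neighbours differed widely. S100a5, between S100a4 and S100a6, had 11 reads in all 21 libraries together, against 2936 for S100a4 and 33763 for S100a6. S100a1, a calcium sensor known from muscle, had a log2 fold change of -0.20 ± 0.30 and S100a13 one of 0.48 ± 0.21, neither called (adjusted p = 0.643 and 0.0901). Anxa10 and Anxa4, the other annexins with the most reads per gene length, had log2 fold changes of -0.08 ± 0.23 and 0.15 ± 0.13 (adjusted p = 0.832 and 0.394), and Anxa7 and Anxa11 of 0.32 ± 0.13 and 0.20 ± 0.13 (adjusted p = 0.0591 and 0.248). Leaving out Sham 21, PX 37, PX 44 or Sham 46 in turn moved the family count from 3 to 5, 5, 6 and 5, with S100a13 and Anxa7 called in each and Anxa11 also without PX 44. Without a filter on low counts 7 family genes were called, S100a3, S100g, Anxa8 and Anxa13 beside the 3 above. S100g, which encodes calbindin-D9k, then rested on PX 65, with 164 of its 210 PX reads, and 99 of the 164 PX reads of Anxa8 were in PX 57. These low genes were named after their values were seen.

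**Figure D2:**
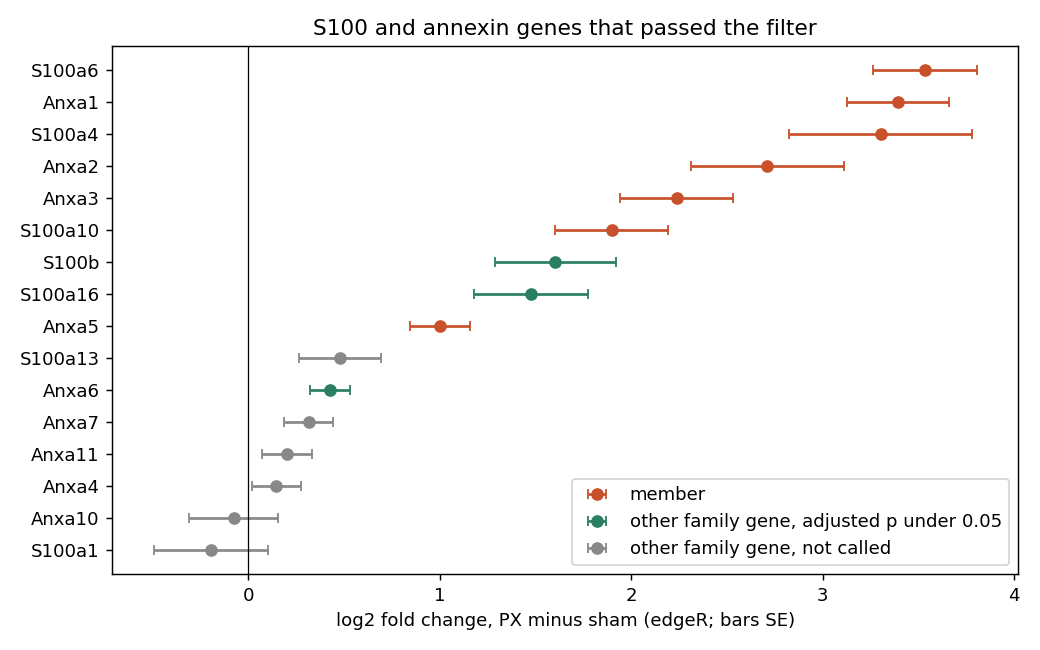
Log2 fold change of PX minus Sham (horizontal axis) with its SE for the 7 members and the 9 other family genes that passed the filter, sorted by value (vertical axis). The members other than Anxa5 lie above S100b and S100a16, and Anxa5 at 1.0 lies below them.

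Receptors, the plasminogen system and intracellular partners of these proteins were read from 3 further lists. Of 8 receptors, 7 were in the count table and 4 passed the filter, of which 3 rose, where 14.9% of all tested genes were called higher. Tlr4, the endotoxin receptor to which calprotectin binds, rose from 2.53 ± 0.899 to 6.40 ± 2.09 CPM, by 1.34 ± 0.23 on the log2 scale (edgeR adjusted p = 0.000109). Mcam and Bsg, adhesion molecules that bind calprotectin, rose by 0.53 ± 0.13 and 0.44 ± 0.16 (adjusted p = 0.00372 and 0.0337). The call of Bsg was lost in 4 of 21 fits with 1 library left out, those without Sham 47, Sham 48, PX 57 or PX 65. It was kept in 4 of 11 other alternatives and lost with limma voom (adjusted p = 0.0587), among others. Ager, which encodes the RAGE receptor, had a value of -0.12 ± 0.15 and was not called (adjusted p = 0.575). The formyl peptide receptors Fpr1, Fpr2 and Fpr3, through which annexin A1 signals, had 2, 10 and 10 reads in all libraries.

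Genes of the plasminogen system, which S100a10 and annexin A2 assemble at the cell surface, were read next. Plaur, the urokinase receptor, rose by 3.23 ± 0.53 (edgeR adjusted p = 9.47e-05), from 0.668 ± 0.359 to 6.45 ± 7.24 CPM. Plau, urokinase, rose by 1.89 ± 0.25 and Plat, tissue plasminogen activator, by 1.53 ± 0.24 (edgeR adjusted p = 8.57e-06 and 6.63e-05). Plg, plasminogen itself, had 29 reads in PX and 3 in Sham and was not tested.

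Of 13 intracellular partners, 12 passed the filter, of which 5 rose, 2 fell and 5 were not called, with a median log2 fold change of 0.10. Among all tested genes 14.9% were called higher and 31.1% in either direction. Pla2g4a, the cytosolic phospholipase A2 that annexin A1 and S100a10 inhibit, rose by 2.47 ± 0.36 (edgeR adjusted p = 1.97e-05). Myof and Ahnak, proteins of plasma membrane repair that work with annexin A2, rose by 2.19 ± 0.29 and 1.35 ± 0.20 (adjusted p = 8.81e-06 and 3.09e-05). Among the non-muscle myosin heavy chains, to which S100a4 binds, Myh9 and Myh14 rose by 0.53 ± 0.15 and 0.75 ± 0.24 (adjusted p = 0.00857 and 0.0205). The call of Myh14 was lost with limma voom (adjusted p = 0.0548). Myh10 fell by 0.80 ± 0.18, from 450.2 ± 91.8 to 259 ± 93.1 CPM (edgeR adjusted p = 0.00211). Kcnk3, a background potassium channel that S100a10 carries to the membrane, had a log2 fold change of -0.49 ± 0.18 (adjusted p = 0.0363), a call kept in 9 of 21 fits with 1 library left out. It was lost without any 1 of Sham 21, 22, 24, 46, 73 and 74 or PX 36, 38, 41, 44, 57 and 58, and with DESeq2 (adjusted p = 0.0511). Of 11 other alternatives, DESeq2 among them, 3 kept the call. Cacybp and Sugt1, binding partners of S100a6, had values of 0.10 ± 0.15 and 0.11 ± 0.12, neither called (adjusted p = 0.636 and 0.537).

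Macrophage and mesenchymal markers were all called higher in PX, and those of other cell types only in part. All 14 measured macrophage markers were called higher in PX, none was at 0, and their summed level ran from 206 to 1922 CPM in PX and from 47.7 to 149.7 CPM in Sham, with a median log2 fold change of 2.73. All 11 measured mesenchymal markers were called higher, none at 0, with sums from 733 to 2920 CPM in PX and from 259 to 860.1 CPM in Sham. Of 10 duct markers, 8 passed the filter and 5 were called higher, none at 0, with sums from 519 to 1025 CPM in PX and from 478 to 628 CPM in Sham. Of 7 endothelial markers 4 were called higher, of 14 acinar markers 3 were called higher, and of 12 endocrine markers 1 was called higher and 4 lower. Over all tested genes 14.9% were called higher. Summed acinar markers were far more abundant than the other 3 sums given here, from 37487 to 878853 CPM in PX and from 3827 to 164238 CPM in Sham. The part of these cells in the levels of the members was not tested.

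Markers of neutrophils, the cells best known for S100a8 and S100a9, were near the floor. Of 12 listed, 11 were in the count table and none passed the filter, and their summed level ran from 0.953 to 6.56 CPM in PX and from 0 to 2.04 CPM in Sham. The median sum was 3.46 CPM in PX and 0.369 CPM in Sham. Csf3r, the G-CSF receptor, had 100 reads in PX and 22 in Sham, Cxcr2, a chemokine receptor, 74 and 7, Retnlg 43 and 1, and Mmp8, a granule collagenase, 18 and 2. Mpo, Ltf and Cxcr1, also defining genes, had 1 read each in PX and 0 in Sham. Camp had 8 and 0, Prtn3 3 and 0, and Elane 4 and 3, whereas Ngp had 5 in PX and 7 in Sham. The part of these cells in S100a8 and S100a9 was not tested. PX 36, with the highest S100a9 level, had 25 reads over this list, fewer than PX 57, PX 58, PX 62 and PX 65. Sham 22, with the highest S100a9 level of the Sham group, had 17 reads over it, the most of the Sham libraries. Lymphocyte markers did not pass the filter either, with sums up to 12.2 CPM in PX and 1.44 CPM in Sham.

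With the macrophage and mesenchymal scores (mean log2 CPM of the markers) as covariates, the members parted. S100a6 had a log2 fold change of 2.62 ± 0.48 and Anxa1 one of 1.60 ± 0.31 (SE), whereas Anxa3 had 0.11 ± 0.27 and the values of S100a4, S100a10, Anxa2 and Anxa5 turned to -0.37 ± 0.38, -0.43 ± 0.27, -0.48 ± 0.21 and -0.10 ± 0.19. The macrophage score averaged 4.21 ± 0.924 (SD, n = 11) over PX and 1.68 ± 0.371 (SD, n = 10) over Sham libraries and did not overlap, so score and operation cannot be told apart in this fit. It called 6 of all genes, against 4088 without covariates, and 0 members. With the duct score as a covariate, chosen after seeing the data, S100a6 had 2.69 ± 0.40 and Anxa1 2.31 ± 0.32, and the other 5 had values from 0.39 to 1.10. The duct score did not overlap between the groups either, with a minimum of 5.19 in PX and a maximum of 5.14 in Sham. Score and operation therefore cannot be told apart in the duct fit, which called 41 of all genes and 2 members.

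Among the 11 PX libraries alone, levels of most members moved together. Over the 36 pairs of the 9 members other than S100a8, Pearson's r of log2 CPM had a median of 0.703, a highest value of 0.962 for S100a4 and Anxa2 and a lowest of -0.06 for S100a6 and S100a9. These r are descriptions over libraries that share their depth and scaling. S100a4, S100a10, Anxa2, Anxa3 and Anxa5 formed the tightest set, with r from 0.887 to 0.962 between any pair of them. S100a6 had r of 0.567 with S100a4, which lies in the same cluster, and 0.770 with Anxa1. S100a9 had r below 0.3 with every member except S100a11 (0.569), on counts of 2 to 45 reads per library.

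**Figure D3:**
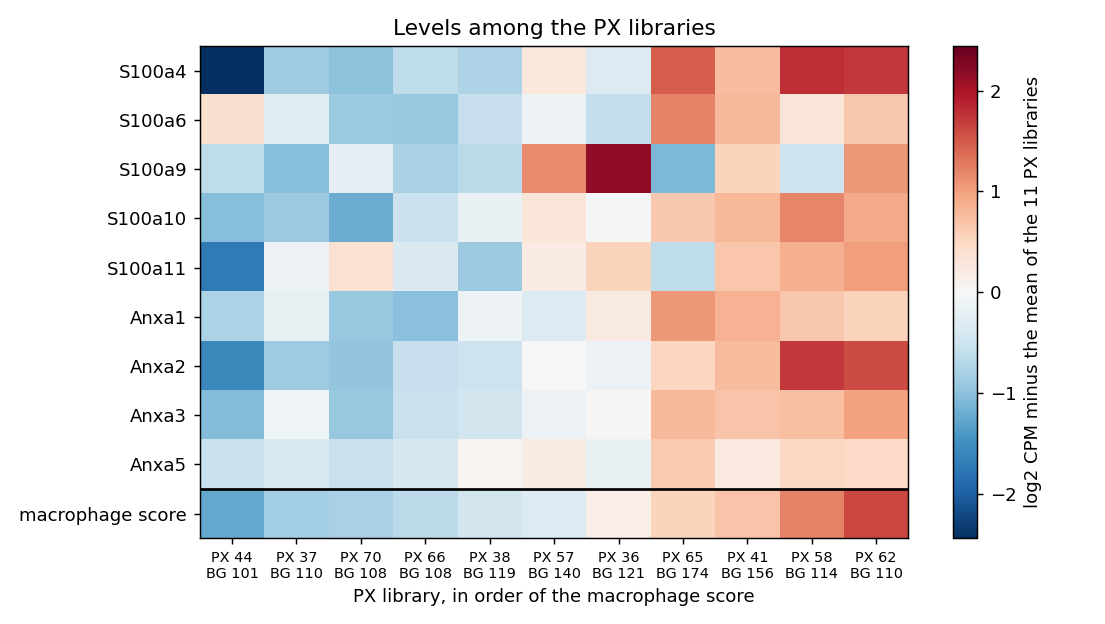
Log2 CPM of 9 members and the macrophage score (rows) in the 11 PX libraries (columns, in order of the macrophage score, with each animal's BG), as the difference from the mean of the PX libraries. S100a4 and Anxa2 follow the order of the score, S100a6 is above its mean in PX 44, and S100a9 peaks in PX 36.

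PX 44 shows the difference between S100a6 and S100a4 most. It ranked 4 of 11 for S100a6, at 468 CPM, and 11 of 11 for S100a4, at 4.16 CPM, and its macrophage score of 2.96 was the lowest of the PX group. The ratio of S100a6 to S100a4 CPM was 113 there, against 5.37 to 23.0 in the other PX libraries and 4.22 to 16.7 in Sham.

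Proteins known to bind each other were compared as pairs of genes within each group, in 8 tests of 4 pairs with p-values adjusted over them. S100a10 and Anxa2 had r = 0.952 and rho = 0.991 over the 11 PX libraries (permutation tests, p = 1e-05 each, the smallest they can give, adjusted p = 8e-05). Without the 2 libraries farthest from the median of S100a10 the value was r = 0.954, and within the 6 libraries PX 57 to 70 it was 0.945. In Sham the same pair had r = 0.840 and rho = 0.758 over 10 libraries (permutation tests, adjusted p = 0.032 and 0.04), which fell to r = 0.303 without the 2 farthest libraries, Sham 46 among them, and so rests on those. S100a11 and Anxa2 had r = 0.721 and rho = 0.682 in PX (permutation tests, adjusted p = 0.032 and 0.05), with r = 0.586 without the 2 farthest libraries, on low counts of S100a11. S100a6 and Anxa2 had r = 0.557 in PX and -0.337 in Sham, where rho was -0.758 (permutation test, adjusted p = 0.04 for rho, and 0.423 for r), and whether the groups differ in this was not tested. S100a11 and Anxa1 had r = 0.430 in PX and -0.321 in Sham, neither past the threshold (permutation tests, adjusted p = 0.304 and 0.423 for r). S100a8 had too few reads for its pair with S100a9.

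**Figure D4:**
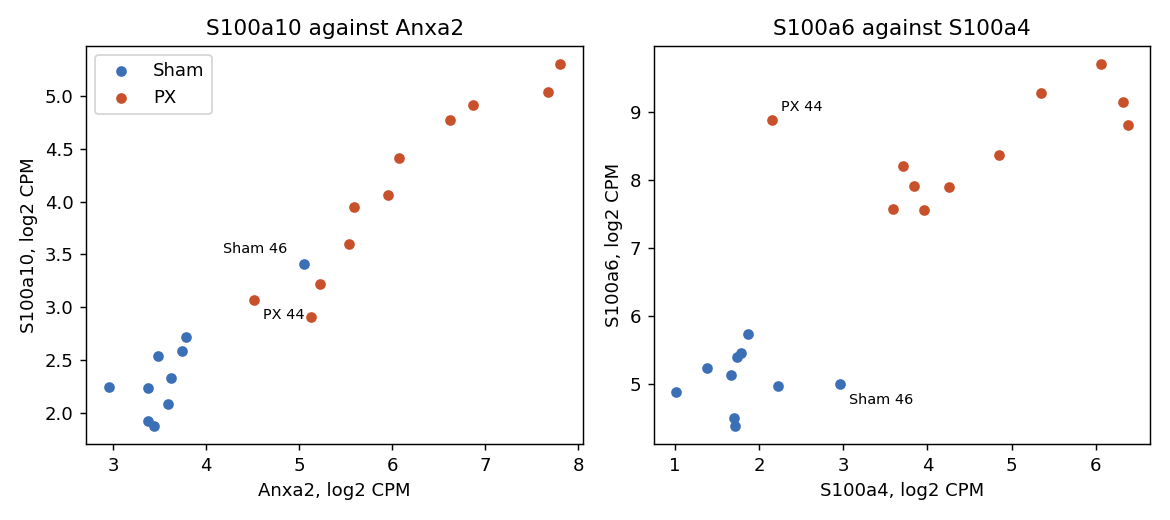
Log2 CPM of S100a10 (vertical) against Anxa2 (horizontal), and of S100a6 against S100a4, with each point 1 library of Sham or PX. S100a10 and Anxa2 lie along 1 line in PX, and PX 44 has a high S100a6 with a low S100a4.

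Each of the 9 members was also set beside marker scores within PX, in 36 tests of 4 scores. The macrophage score had r = 0.977 and rho = 0.973 with Anxa2, r = 0.931 and rho = 0.955 with S100a4, r = 0.931 and rho = 0.882 with Anxa3 and r = 0.922 and rho = 0.955 with S100a10 (n = 11, permutation tests, adjusted p for r 0.00036, 0.00048, 0.00036 and 0.00072). It had r = 0.863 and rho = 0.864 with Anxa5, r = 0.831 and rho = 0.782 with Anxa1 and r = 0.710 and rho = 0.727 with S100a11 (adjusted p for r 0.00792, 0.0084 and 0.0252, permutation tests). Without the 2 libraries farthest from the median score, r was 0.965 for Anxa2 and 0.526 for S100a11. For S100a6 the value was r = 0.589 and rho = 0.509, and for S100a9 r = 0.355 and rho = 0.382, neither past the threshold (permutation tests, adjusted p = 0.0965 and 0.348 for r). With the duct score 7 members had r from 0.739 to 0.794, the highest for Anxa5, all past the threshold by r (for Anxa1 not by rho, adjusted p = 0.0504, permutation test), and S100a9 and S100a11 did not pass. For S100a6 the duct r was the highest of its 4 values, at r = 0.753 and rho = 0.718 (permutation tests, adjusted p = 0.0178 and 0.0405), and r = 0.719 without the 2 farthest libraries. With the mesenchymal score r was highest for Anxa2 (0.842), Anxa3 (0.840) and S100a11 (0.824, above its macrophage value), also past the threshold by r for S100a4, Anxa1 and S100a10 (0.789, 0.7598 and 0.729, the last not by rho), and not past it for Anxa5, S100a6 and S100a9 (0.614, 0.409 and 0.354). No member passed with the acinar score, where r ran from -0.400 to 0.531. Within PX 57 to 70 (n = 6) the r of the macrophage score were 0.975 for Anxa2, 0.945 for S100a4 and 0.783 for S100a6. Differences between these r were not tested.

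Genes with the most similar pattern over the 11 PX libraries were taken from 8741 genes of at least 10 mean CPM by Pearson's r, as a description. For Anxa2 they were Ctsz, Cd14 and Capg (r from 0.978 to 0.986), where Cd14 is a monocyte and macrophage receptor and Ctsz a lysosomal cathepsin. For S100a4 they were Fermt3, a kindlin of blood cells, Tspo and Tgm2 (0.972 to 0.978), and for S100a10 Mgst1, Tmsb10 and Il4r (0.949 to 0.957). For Anxa1 they were Pla1a, Cd44, the hyaluronan receptor, and Il33, an alarmin (0.924 to 0.960). For Anxa3 they were Atp10d, Ahnak and Clec10a, a macrophage lectin (0.963 to 0.971), and for Anxa5 Mgst1, RGD1563861 and Myl6 (0.931 to 0.953). For S100a6 the highest values were lower, 0.857 to 0.892, with Serpinb9, a granzyme B inhibitor, Tsta3 and Eml4. S100a11 had RT1-CE5, Pik3ap1 and Hmox1 (0.897 to 0.910), and S100a9 had Cnn3, Schip1 and Acss2 (0.804 to 0.865), both on few reads.

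The members were then compared with BG among the 11 PX animals, a contrast that does not use the Sham group. Slopes of log2 level per 10 units of BG were above 0 in 8 of the 9 members tested, against 46.7% of all genes. The members moved together over these libraries (median r = 0.703), so their slopes are not separate observations. After adjustment over all genes 0 members passed (edgeR), where 0% of 14442 genes passed. At an unadjusted p under 0.05 there were 3 members, against 12.2% of all genes. They were Anxa1 at 0.18 ± 0.07 (SE, p = 0.0151, adjusted p = 0.364), S100a6 at 0.16 ± 0.07 (p = 0.0311, adjusted p = 0.385) and Anxa5 at 0.10 ± 0.05 (p = 0.0478, adjusted p = 0.408). With library totals as the only scaling the slopes were 0.10 for Anxa1, 0.06 for S100a6 and 0.0042 for Anxa5. Without PX 65, the animal with the highest BG, S100a6 had 0.10 ± 0.10, and 394 genes had an unadjusted p under 0.05, against 1756 with it. DESeq2 called 27 genes and limma voom 0 over all genes, and neither called a member. S100a4, S100a10 and Anxa3 had slopes of 0.16 ± 0.15, 0.14 ± 0.10 and 0.13 ± 0.08, and Anxa2 one of 0.06 ± 0.14. None of the 9 other family genes passed either, and S100b had a slope of 0.18 ± 0.08 (p = 0.0312, adjusted p = 0.385).

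By correlation with BG the same 3 members had the highest r. Anxa1 had r = 0.664 and rho = 0.749 (n = 11, permutation tests, adjusted p = 0.153 and 0.054 over 9 members), Anxa5 r = 0.631 and rho = 0.735 (adjusted p = 0.153 and 0.054), and S100a6 r = 0.5996 and rho = 0.470 (adjusted p = 0.153 and 0.193, permutation tests). Without the 2 animals farthest from the median BG, PX 41 and PX 65, r was 0.240, 0.444 and -0.0894 for Anxa1, Anxa5 and S100a6. The r of S100a6 rests on those 2 animals. For Anxa1 the r fell too, but leaving out both also narrows the range of BG. With 1 of them left out, the slope of Anxa1 was 0.19 ± 0.10 (SE) without PX 65 and 0.17 ± 0.08 without PX 41. PX 58 and PX 62 had the highest S100a4 and Anxa2 levels of all libraries at BG of 114 and 110. Within PX 57 to 70 (n = 6) r was 0.547 for Anxa1, 0.548 for Anxa5 and 0.656 for S100a6, and the 5 libraries PX 36 to 44 are too few for a value.

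**Figure D5:**
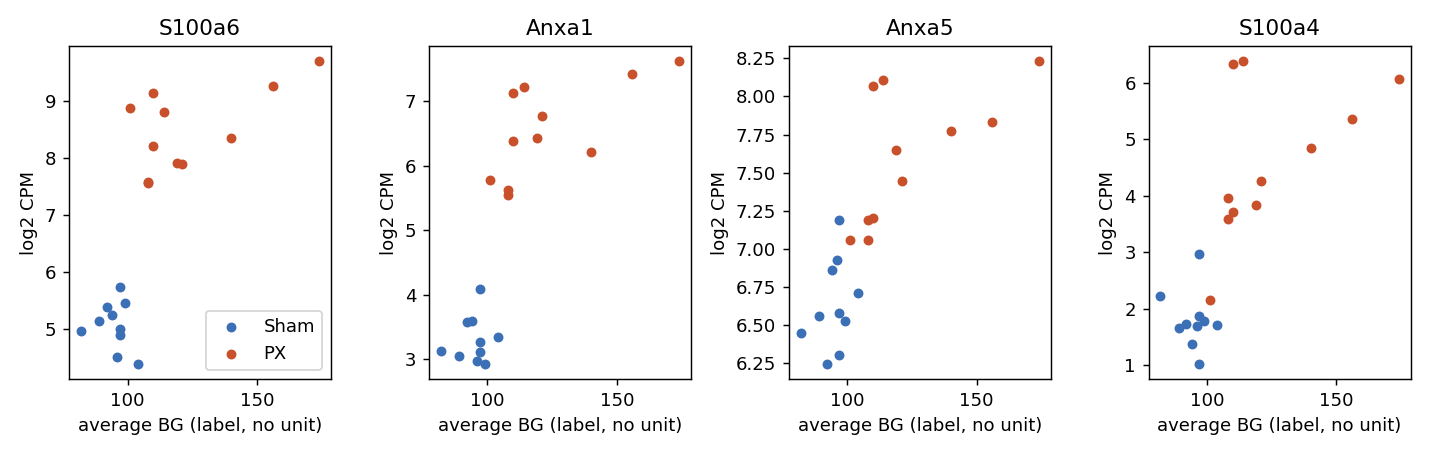
Log2 CPM (vertical axis) of S100a6, Anxa1, Anxa5 and S100a4 against the average BG of each animal as labelled (horizontal axis, no unit given), with each point 1 library of Sham or PX. The highest S100a4 points are PX animals with BG of 110 and 114, and the highest S100a6 and Anxa1 points are the animal with BG of 174. The CPM of that animal, PX 65, are raised by its TMM factor of 0.359.

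A fit with only the 8 PX animals of BG 121 or less uses the same contrast and is a description. There the log2 fold changes were 3.31 ± 0.24 for S100a6, 3.22 ± 0.24 for Anxa1, 3.19 ± 0.52 for S100a4, 2.73 ± 0.46 for Anxa2, 2.14 ± 0.32 for Anxa3, 1.78 ± 0.33 for S100a10 and 0.93 ± 0.17 for Anxa5 (SE). Because every run of consecutive animal numbers belongs to either PX or Sham, a within-run value of PX against Sham cannot be given. S100a4 had 18.1 ± 13.6 CPM in PX 36 to 44 (SD, n = 5) and 47.5 ± 32.7 CPM in PX 57 to 70 (SD, n = 6), and Anxa2 57.2 ± 36.3 and 112 ± 81.8 CPM. S100a6 had 372 ± 166 and 425 ± 247 CPM and Anxa1 100.3 ± 43.4 and 109 ± 61.3 CPM in the same runs. In all 4 genes the difference between the runs was within the larger SD.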

How the data were processed

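Polyadenylated RNA of 21 islet libraries was compared as labelled. The tools named per the submitters' processing notes, without versions, are Subread, featureCounts, FastQC and limma. For the genome build, strand and aligner settings, nothing was given in the sources used here. Deposited counts are whole reads per gene in featureCounts layout, per the file headers, and the table's gene length in base pairs was used for RPKM. In the authors' deposited table, per the file headers, log2 fold change, fold change as a linear ratio, mean log2 expression and p-values are given; only the log2 fold change was used.

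The counts were scaled by TMM factors in edgeR 4.0.16 (R 4.3.3), filtered with filterByExpr at a minimum count of 10 and a total of 15, and fitted with robust quasi-likelihood models for PX against Sham over 21 libraries and for BG per 10 units over the PX libraries. Tests were two-sided, with Benjamini-Hochberg adjustment at 0.05. SE came from the fold change and F statistic. Log2 CPM used a prior count of 2. Permutation tests used 100000 resamples (numpy 2.4.6). Both fits were tested on simulated counts. Alternatives were other scalings, no filter, DESeq2 1.42.0, limma 3.58.1 voom, marker-score covariates, BG of 121 or less and each library left out. The neutrophil score and the pair of S100a8 and S100a9 were planned but not computed, for lack of reads. All members are named with their values; other listed genes are named where called or beside a count, and the similar genes are the 3 of highest r. Members and lists were chosen with earlier results of these data known. 1 listed gene is not reported here.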

Additional observations from a re-analysis of the deposited data

Results flagged for a closer look

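Among the 10 Sham libraries, Sham 46 was set apart from the rest for Anxa2 and for Anxa3. Its gap to the next Sham library was 0.604 of the whole Sham range of log2 CPM for Anxa2 (33.0 CPM against 13.5 in Sham 21) and 0.539 for Anxa3 (14.8 CPM against 6.66 in Sham 73), above Dixon's limit of 0.466 for 10 values. Chance sets apart about 1 in 20 groups, and 9 genes were examined. The same library had the highest macrophage and mesenchymal scores of the Sham group, at 2.66 and 5.36, beside group medians of 1.56 and 4.07, and the part of those cells in its Anxa2 and Anxa3 levels was not tested. Its S100a6 level of 31.8 CPM was below the Sham median.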

How the results depend on the processing

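No paired analysis was possible because no animal number is shared between the groups. The 7 members in the fit were called higher under each scaling, filter, tool and left-out library tried and with the acinar score; 0 were with the macrophage and mesenchymal scores, and 2 with the duct score, added after seeing the data. With the macrophage and mesenchymal scores the log2 fold changes of S100a4, S100a10, Anxa2 and Anxa5 turned to -0.37, -0.43, -0.48 and -0.10. Called genes of the other family members numbered 7 without a filter, 6 without PX 44, PX 65 and Sham 46 together (also added), 0 with either of those score sets, and 3 to 6 with each library left out. Receptors, plasminogen genes and partners called numbered 0 with the macrophage and mesenchymal scores and 0 with the duct score, against 14 in the main setting. Over all genes, calls numbered 2379 with the acinar score, 6 with the macrophage and mesenchymal scores, 41 with the duct score and 2550 with the 8 PX animals of BG 121 or less. Library totals alone shifted the median of all genes from -0.04 to -0.28 and the calls from 1961 higher and 2127 lower to 990 and 2227, and ended the calls of Anxa6, Mcam, Bsg, Myh9 and Myh14. For the BG slope, 6 genes were called without a filter, 27 with DESeq2 and 0 to 1 with each library left out, and 0 members in any of these. The slope of S100a11, -0.0007 in the main setting, was 0.0007 with DESeq2 size factors, 0.0051 with upper-quartile factors, 0.0833 with voom, 0.0231 with the run of animal numbers as a covariate, 0.0371 without PX 44 and PX 65, and -0.0813 to 0.1398 with each library left out. That of S100a9 ran from -0.014 to 0.3094 with each library left out, and that of Anxa2 was -0.0053 with library totals only and -0.0013 with the macrophage score. The cause of these changes was not tested. S100a8 allows no comparison at 23 reads.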
